A study of Mus musculus with 20 samples.

Results

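Fibroblasts of the colon lie beneath and between the crypts and lay down the matrix that carries them. The fibroblast and stromal activation genes described here are 42 genes named by symbol, namely markers of fibroblast identity, transforming growth factor ligands, cross-linking enzymes, elastic fibre proteins, transcription factors and secreted signals. They were chosen by their known roles, but with earlier results of these data known. They are 42 of the 32991 genes with a summed value. For each gene and mouse the FPKM of its Ensembl transcripts were added up. FPKM are fragments scaled to transcript length and to the depth of the library, so that levels of genes of different length can be compared.

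The RNA came from colon tissue of 20 male C57BL/6 mice, 5 in each of 4 groups, with 1 library per mouse. The Control group received only double distilled water, and the PZH group received 250 mg/kg/d of PZH, the Chinese herbal and animal formula Pien Tze Huang, by gavage for 91 days. The AOM/DSS group, called Model in the labels, received water, a dose of 12.5 mg/kg of the carcinogen azoxymethane (AOM) and cycles of 2% dextran sodium sulfate (DSS), which damages the colon epithelium. The PZH + AOM/DSS group received AOM, DSS and PZH. AOM and DSS together are a model of colitis-associated colorectal cancer in which inflammation and tumors come together, so a difference between these groups belongs to inflamed and tumor-bearing tissue as a whole. The purpose of the study was to compare the effect of AOM/DSS and the effect of PZH on it.

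Resting fibroblasts hold decorin, lumican and dermatopontin in the matrix around collagen fibrils. In wounded or inflamed tissue, latent TGF-beta 1 is set free, and together with activin and PDGF it drives fibroblasts to divide, to secrete matrix and to make lysyl oxidase, which cross-links collagen and elastin. Activated fibroblasts also release complement C3 and chemokines that draw in leukocytes. In the colon a thin sheet of Foxl1-expressing stromal cells, the telocytes, lies under the epithelium and supplies it with Wnt and BMP signals.

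Fibroblast RNA was present in every mouse. Decorin (Dcn) ranged from 87.8 to 267 FPKM over the 20 mice, and Pdgfra, Lum, Dpt and Thy1 were above 0 in all of them. Epithelial markers summed to between 3457 and 8209.7 FPKM per mouse, a level that fits the label colon, although the extraction text of the labels names the abdominal aorta. Several libraries stood apart. Control mice 17 and 50 held squamous epithelium markers (keratins of stratified epithelium such as Krt13 and Krt4) at summed levels of 320.4 and 269 FPKM, against at most 1.82 FPKM in the other Control mice. Control mouse 50 was also the highest of the 5 in summed smooth muscle markers, at 5325 FPKM against 2312 to 2910.1 FPKM. In the PZH + AOM/DSS group, mouse 35 was at the level of the AOM/DSS group for many members. The main member counts are therefore also given without these mice, and other values are given without them where that ends a call or turns a direction.

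AOM/DSS raised one set of stromal genes and lowered a smaller one. Of the 42 members, 40 were tested in AOM/DSS against Control, and 11 of them (27.5%) were called higher in AOM/DSS mice, with the threshold set at 0.05 for the adjusted P. Among all tested genes the share called higher was 16.4%. The 11 were Mgp, Igfbp5, Lox, C3, Foxl1, Ccl11, Inhba, Tgfbi, Tgfb1, Snai1 and Pdgfra. Called lower were 3 members (7.5%), Lum, Dpt and Cd34, against 7.23% of all genes, so the share of members that fell was close to that of all genes. The remaining 26 members did not pass the test. The median log2 fold change was 0.14 over the tested members and 0.09 over all genes. Fold changes are on the scale of log2(FPKM + 1) throughout, which understates changes of genes at low levels. All tests across genes were made with limma, and adjusted P are Benjamini-Hochberg values over all genes tested.

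In 8 members the lowest AOM/DSS mouse exceeded the highest Control mouse (Tgfb1, Tgfbi, Lox, Mgp, Snai1, Foxl1, C3 and Igfbp5), a separation found in 13% of all genes. In Lum, Dpt and Cd34 every AOM/DSS mouse lay below every Control mouse, as in 5.43% of all genes. With Control mice 17 and 50 left out, 10 members (25.0%) were called higher, against 12.2% of all genes, and 1 (2.5%) was called lower, against 5.58%. Among the 10 were Pdgfrb in addition, while Pdgfra (adjusted P = 0.0724) and Snai1 (adjusted P = 0.0673) no longer passed.

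**Figure D1:**
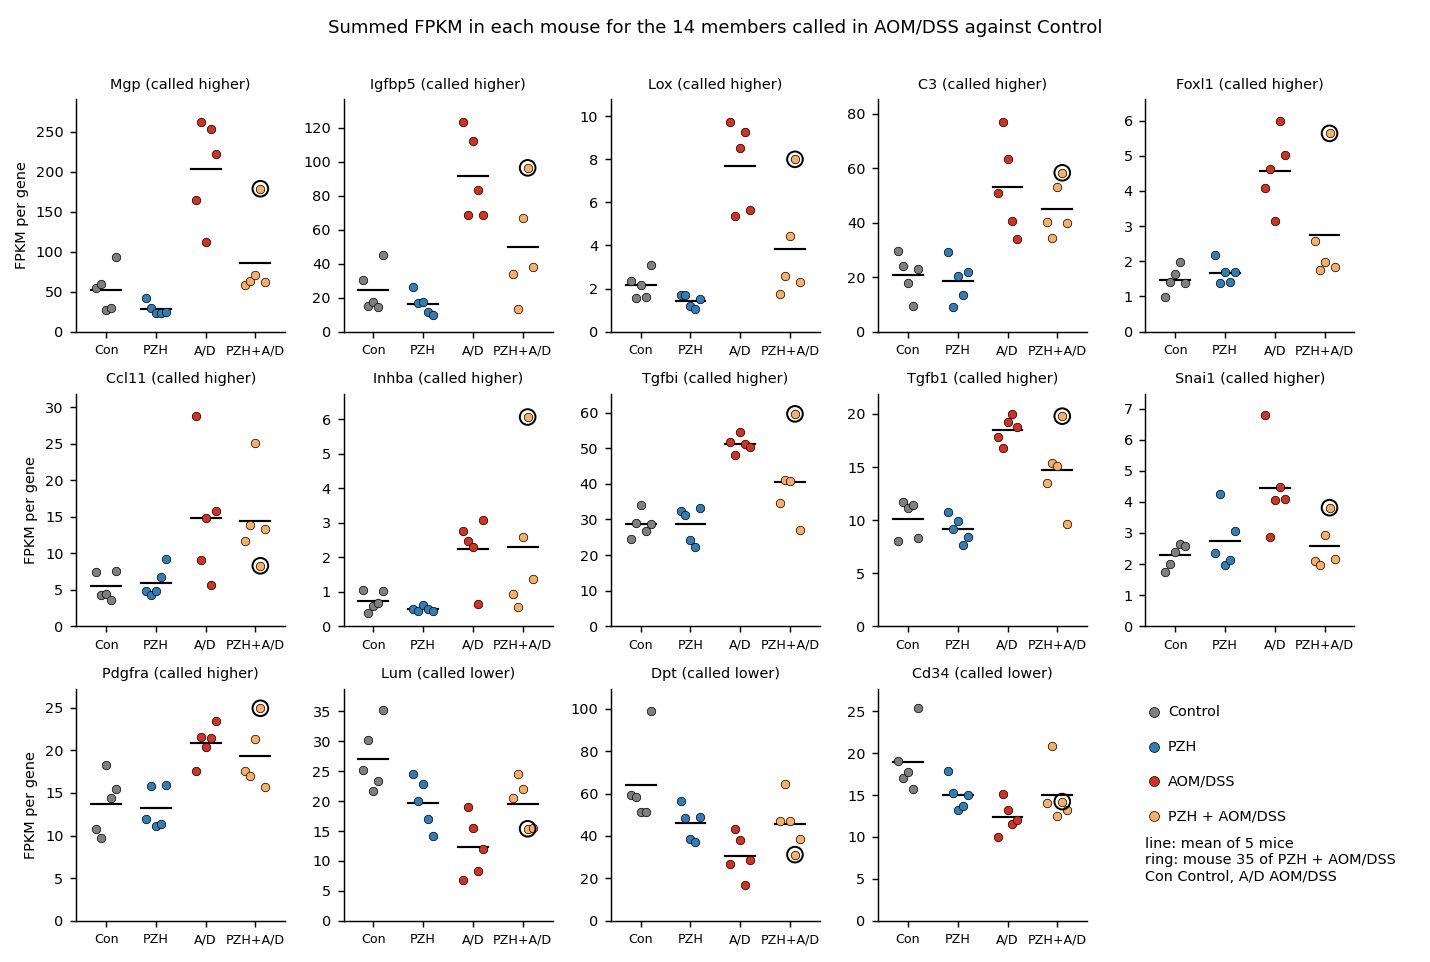
Summed FPKM per gene (vertical axes, linear, from 0) in each of the 20 mice for the 11 members called higher and the 3 called lower in AOM/DSS against Control. Points are mice, lines are means of 5 mice, and the ring marks mouse 35. In the panel of Mgp the AOM/DSS mice lie at 112 to 262 FPKM and 4 of the PZH + AOM/DSS mice between 58.1 and 70.3 FPKM.

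Among the 11 markers of fibroblast identity, 1 was called higher and 3 lower in AOM/DSS mice. The counts by role, here and below, stand beside 16.4% of all genes called higher and 7.23% called lower. These counts describe the members, and the roles were not tested as sets. Lumican (Lum), a small proteoglycan that spaces collagen fibrils, was at 21.7, 23.3, 25.1, 30.2 and 35.2 FPKM in the Control mice. In the AOM/DSS mice it was at 6.77, 8.36, 11.9, 15.5 and 19.01 FPKM (log2 fold change -1.14 ± 0.25 (SE), adjusted P = 0.00872). The groups did not overlap, and the highest AOM/DSS mouse lay just below the lowest Control mouse. Dermatopontin (Dpt), which binds decorin and TGF-beta, was at 51.1, 51.2, 58.6, 59.5 and 99.2 FPKM in Control and at 16.7, 26.9, 28.4, 37.9 and 43.3 FPKM in AOM/DSS mice (log2 fold change -1.06 ± 0.26 (SE), adjusted P = 0.0132). The value of 99.2 FPKM belongs to Control mouse 50. Cd34, a surface glycoprotein of resting fibroblasts that endothelial and blood progenitor cells also carry, was at 15.8, 17.05, 17.7, 19.04 and 25.4 FPKM in Control and 10.02, 11.6, 12.1, 13.2 and 15.1 FPKM in AOM/DSS mice (log2 fold change -0.57 ± 0.15 (SE), adjusted P = 0.017). With Control mice 17 and 50 left out, Lum stayed past the threshold (log2 fold change -1.04, adjusted P = 0.0476), while Dpt (-0.85, adjusted P = 0.0601) and Cd34 (-0.42, adjusted P = 0.0708) did not. In bulk tissue, fewer cells of a type and less RNA per cell cannot be told apart.

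Decorin itself is the closest relative of Lum among the members and its neighbor on the chromosome (chr10:97479609-97518143 and chr10:97565128-97572703, GRCm38). Decorin averaged 174 ± 60.8 FPKM in the Control group against 178 ± 31.9 FPKM after AOM/DSS (SD, n = 5 each), with a log2 fold change of 0.08. Without Control mice 17 and 50 its log2 fold change was 0.39 (adjusted P = 0.16). Pdgfra, the receptor through which PDGF drives fibroblasts and which telocytes carry at high levels, ranged from 9.74 to 18.3 FPKM in Control and from 17.6 to 23.4 FPKM in AOM/DSS mice (log2 fold change 0.60 ± 0.16 (SE), adjusted P = 0.0237), with overlapping ranges. Its sister receptor Pdgfrb, found mainly on pericytes and activated fibroblasts, was at 1.55 ± 0.784 and 3.63 ± 1.53 FPKM (SD, n = 5) and missed the threshold (log2 fold change 0.84 ± 0.29 (SE), adjusted P = 0.0623). It passed with Control mice 17 and 50 left out (adjusted P = 0.0423). The other markers, Thy1, Pi16, Vim, S100a4 and Fap, had log2 fold changes between -0.27 and 0.31 and did not pass. Without Control mice 17 and 50 the log2 fold change of S100a4 turned from -0.27 to 0.43, that of Vim from 0.12 to -0.06 and that of Fap from 0.03 to -0.01, none of which passed. S100a4, a calcium-binding protein that macrophages also make, was highest in Control mice 50 and 17, at 66.2 and 36.5 FPKM. Fap, the surface protease that marks many tumor fibroblasts, was near 0.878 FPKM in AOM/DSS and 0.843 FPKM in Control mice.

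Of the 5 growth factor genes, 3 rose with AOM/DSS. Tgfb1, the main TGF-beta of wound repair, was at 8.04, 8.29, 11.2, 11.4 and 11.7 FPKM in Control and 16.8, 17.8, 18.8, 19.2 and 20.02 FPKM in AOM/DSS mice (log2 fold change 0.83 ± 0.13 (SE), adjusted P = 0.00118). The groups were far apart, with a gap between them wider than the range of either. Tgfbi, a secreted adhesion protein named for its induction by TGF-beta, was at 24.6, 26.6, 28.7, 29.1 and 34.2 FPKM in Control and 48.1, 50.5, 51.3, 51.8 and 54.7 FPKM in AOM/DSS mice (log2 fold change 0.83 ± 0.10 (SE), adjusted P = 0.000235), which gave it the smallest P of all members. Inhba encodes the subunit of activin A, a TGF-beta family ligand. It was at 0.381, 0.586, 0.663, 1.01 and 1.05 FPKM in Control and 0.646, 2.29, 2.47, 2.77 and 3.07 FPKM in AOM/DSS mice (log2 fold change 0.85 ± 0.24 (SE), adjusted P = 0.0255). One AOM/DSS mouse, number 44, lay within the Control range of Inhba, and the call was lost in 8 of the alternatives tried, among them no filter on low values (limma adjusted P from 0.0521 to 0.0636). The other ligands, Tgfb2 (log2 fold change -0.26, adjusted P = 0.243) and Tgfb3 (-0.38, adjusted P = 0.158), did not pass. Of the summed FPKM of the 3 TGF-beta ligands, Tgfb1 held 62.2 ± 8.88% in Control and 80.8 ± 1.85% in AOM/DSS mice (SD, n = 5 each). It held 71.4 ± 2.17% in PZH mice, and 77.04 ± 6.78% with both treatments (SD, n = 5 each).

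Among the cross-linking and hyaluronan enzymes, lysyl oxidase (Lox) changed and its tested relatives did not pass. Lox, which oxidizes lysines of collagen and elastin so that the chains can be joined, was at 1.56, 1.599, 2.14, 2.36 and 3.096 FPKM in Control and at 5.35, 5.65, 8.53, 9.26 and 9.73 FPKM in AOM/DSS mice (log2 fold change 1.45 ± 0.20 (SE), adjusted P = 0.000599). The lowest AOM/DSS mouse was above the highest Control mouse. Loxl1, the relative that acts on elastic fibres, was at 8.73 ± 1.84 and 8.53 ± 0.399 FPKM (SD, n = 5), a log2 fold change of -0.01. Loxl2 values split in a way the groups do not explain and are shown for that reason, chosen after they were seen. They were 0.522, 0.607, 4.95, 6.26 and 9.45 FPKM in Control and 0.641, 12.8, 15.9, 16.9 and 21.4 FPKM in AOM/DSS mice. Thus 2 Control mice (41 and 50) and 1 AOM/DSS mouse (52) were under 1 FPKM, as was PZH mouse 14 at 0.961 FPKM, while every other mouse was above 4 FPKM. Its test had a wide error (log2 fold change 1.42 ± 0.78 (SE), adjusted P = 0.22), and the reason for the split was not tested. The hyaluronan synthase Has2 was near the detection filter at 0.639 and 0.679 FPKM. Has1 was not tested. It was at 0, 0, 0.0524, 0.0561 and 0.123 FPKM in Control, 0.0495, 0.114, 0.137, 0.141 and 0.197 FPKM in AOM/DSS and 0.116, 0.137, 0.3397, 0.342 and 0.561 FPKM in PZH + AOM/DSS mice.

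Of the 8 elastic fibre and microfibril genes, only matrix Gla protein (Mgp) was called. Mgp, a vitamin K-dependent protein that keeps soft tissue from calcifying and binds BMPs, had the largest fold change of all members. It was at 27.3, 28.9, 54.1, 59.4 and 92.8 FPKM in the Control mice and at 112, 165, 222, 254 and 262 FPKM in the AOM/DSS mice (log2 fold change 2.01 ± 0.35 (SE), adjusted P = 0.00245). The 2 highest Control values, 92.8 and 59.4 FPKM, belong to mice 50 and 37, and with mice 17 and 50 left out the log2 fold change was 2.39. Elastin (Eln) was at 12.6, 12.9, 17.2, 19.9 and 25.1 FPKM in Control and 3.27, 5.699, 9.12, 13.7 and 21.5 FPKM in AOM/DSS mice. The AOM/DSS mice were widely spread, from inside the Control range to below it (adjusted P = 0.15). Fibulin 2 (Fbln2, -0.66, adjusted P = 0.0841) and Mfap5, a microfibril glycoprotein (-0.63, adjusted P = 0.0753), had negative log2 fold changes that passed the unadjusted threshold but not the adjusted one. Fbn1, which forms the microfibril core, Fbln1, Mfap4 and Aebp1 had log2 fold changes between 0.14 and 0.32 and did not pass, and Fbln1 turned from 0.22 to -0.13 without Control mice 17 and 50.

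Of the 8 transcription factors, Foxl1 and Snai1 rose. Foxl1, the forkhead factor of the telocytes under the epithelium, was at 0.971, 1.38, 1.41, 1.64 and 1.97 FPKM in Control and 3.15, 4.09, 4.62, 5.03 and 5.98 FPKM in AOM/DSS mice (log2 fold change 1.16 ± 0.17 (SE), adjusted P = 0.000744). The ranges did not overlap. Foxf1, its forkhead neighbor on the same chromosome (chr8:121084386-121088144 and chr8:121127940-121130644, GRCm38) and a regulator of gut mesenchyme, was at 13.4 ± 2.78 and 13.5 ± 1.51 FPKM (SD, n = 5), a log2 fold change of 0.03. Snai1, a zinc finger repressor of epithelial cadherin, was at 1.75, 2.01, 2.39, 2.57 and 2.66 FPKM in Control and 2.85, 4.08, 4.11, 4.47 and 6.79 FPKM in AOM/DSS mice (log2 fold change 0.71 ± 0.18 (SE), adjusted P = 0.0174). Its relatives in the control of epithelial-mesenchymal transition, Snai2, Twist1, Twist2, Zeb1 and Zeb2, had log2 fold changes between -0.35 and 0.50 and did not pass. Chosen after its values were seen, Zeb1 was at 0.393 FPKM in AOM/DSS mouse 44 and at 3.74 to 3.99 FPKM in the other 4 mice of that group.

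Of the 5 secreted signals, 3 rose. Igfbp5, which binds insulin-like growth factors in the matrix, was at 14.3, 14.9, 17.3, 30.6 and 44.9 FPKM in Control and 68.5, 68.9, 83.4, 112 and 123 FPKM in AOM/DSS mice (log2 fold change 1.96 ± 0.32 (SE), adjusted P = 0.00158). All AOM/DSS mice were above all Control mice, and without Control mice 17 and 50 the log2 fold change was 2.45. Complement C3, which epithelium and macrophages also make, was at 9.45, 17.96, 23, 24.2 and 29.7 FPKM in Control and 33.9, 40.5, 50.9, 63.2 and 76.96 FPKM in AOM/DSS mice (log2 fold change 1.34 ± 0.30 (SE), adjusted P = 0.00938). Eotaxin (Ccl11), the chemokine that attracts eosinophils, was at 3.57, 4.26, 4.47, 7.48 and 7.62 FPKM in Control and 5.59, 9.03, 14.9, 15.8 and 28.8 FPKM in AOM/DSS mice (log2 fold change 1.16 ± 0.37 (SE), adjusted P = 0.0427). Here the ranges overlapped, since mouse 44 was again the lowest of its group. The call of Ccl11 was lost in 8 of the alternatives tried (limma adjusted P from 0.0713 to 0.0938) and for its single tested transcript (adjusted P = 0.0925). Adamdec1, a metalloprotease-like protein, was listed at 0 in 15 mice and at no more than 0.0661 FPKM in any, so nothing can be said of it.

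Cxcl12, the stromal chemokine that binds Cxcr4 on lymphocytes and stem cells, was at 9.72 ± 1.85 and 11.5 ± 4.87 FPKM (SD, n = 5) as a gene and did not pass (log2 fold change 0.15 ± 0.25 (SE), adjusted P = 0.712). Its transcripts are described after their values were seen, and their coding ends are shown because that is where the transcripts differ. By genome position, all 3 coding transcripts share their first 266 coding bases (gene at chr6:117168535-117181367, GRCm38, plus strand) and then part. The last 30 shared bases are printed in lower case below, from position 117173549. Capitals mark the coding bases of each transcript after the shared part, without the stop codon, as GENCODE M21 gives them. The first capital is G in all 3, so their sequences differ only after it.
Cxcl12-201: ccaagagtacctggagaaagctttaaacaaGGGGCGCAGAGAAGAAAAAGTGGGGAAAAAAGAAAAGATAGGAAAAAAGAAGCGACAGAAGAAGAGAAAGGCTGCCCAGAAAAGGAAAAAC
Cxcl12-202: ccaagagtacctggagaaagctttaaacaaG
Cxcl12-203: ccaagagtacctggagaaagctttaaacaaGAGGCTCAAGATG
The first has 91 coding bases after the shared part, which end at position 117176176. The third has 13, ending at position 117178595, and the second ends 1 base after the shared part. Cxcl12-201 was at 3.59, 4.79, 4.81, 6.31 and 6.91 FPKM in Control and 2.09, 2.09, 3.06, 3.33 and 3.902 FPKM in AOM/DSS mice. The ranges of Cxcl12-201 overlapped, with the AOM/DSS mice toward the lower end. Cxcl12-203 was at 1.205, 1.41, 1.51, 1.89 and 2.08 FPKM in Control and 1.44, 2.18, 3.197, 3.76 and 4.95 FPKM in AOM/DSS mice. Cxcl12-202 was at or below 0.606 FPKM in every mouse of both groups except AOM/DSS mouse 44, where it was at 14.98 FPKM. The long form Cxcl12-201 held 54.1 ± 7.59% (SD, n = 5) of the summed FPKM of the gene in Control and 28.4 ± 10.9% (SD, n = 5) in AOM/DSS mice, with no overlap between the groups in this share (P = 0.00794 by a two-sided exact permutation test, which is the minimum for 5 against 5 mice). Adjusted over the 17 members with a share to compare, P was 0.135, so the share did not pass. With 5 against 5 mice, a single gene at the minimum could not have passed this adjustment. The gene was picked after the values were seen, so the unadjusted P does not show a difference either. In PZH and PZH + AOM/DSS mice the share was 55.6 ± 5.68% and 43.4 ± 5.21% (SD, n = 5 each).

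At the level of single transcripts, 62 of the 151 member transcripts were tested in AOM/DSS against Control. Called higher were 9 of them (14.5%, against 5.62% of all transcripts), from 8 members, and 2 were called lower (3.23%, against 2.58%), from Lum and Dpt. In no member did transcripts pass in opposite directions. Inhba has 2 transcripts with the same coding exons, and Inhba-202 was called while Inhba-201 was not. Inhba-202 was at 0, 0, 0, 0 and 0.758 FPKM in Control and 0.446, 1.35, 1.395, 1.74 and 2.01 FPKM in AOM/DSS mice, so that 1 Control mouse lay within the AOM/DSS range. Inhba-201 was at 0.257, 0.381, 0.586, 0.663 and 1.05 FPKM in Control and 0.1997, 0.731, 0.894, 1.05 and 1.42 FPKM in AOM/DSS mice, with overlapping ranges.

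The genes around these members were counted in the same comparison, from lists that were chosen with earlier results of these data known. Over all genes tested there, 16.4% were called higher and 7.23% lower. Of 26 tested genes of TGF-beta and activin signaling, 10 rose and none fell, with a median log2 fold change of 0.44. Among them were the activin subunit Inhbb (2.07, adjusted P = 2.32e-05), the type I receptor Tgfbr1 (0.69, adjusted P = 0.000562), the latent TGF-beta binding protein Ltbp2 (1.63, adjusted P = 0.00184) and the type II receptor Tgfbr2 (0.63, adjusted P = 0.00248). Of the 4 PDGF ligands, Pdgfb (0.83, adjusted P = 0.0033) and Pdgfc (0.73, adjusted P = 0.00729) rose. Of 14 tested partners of elastic fibres and cross-linking, 3 rose and 2 fell, with the fibulin-like Efemp1 (-1.02, adjusted P = 0.0026) passing most clearly. The rises among these partners were near the share over all genes. Of 9 tested hyaluronan genes 3 rose, led by the hyaluronan-degrading protein Cemip (2.42, adjusted P = 2.42e-05). Of the 14 tested genes of inflammation-associated fibroblasts, 12 rose and 1 fell, at a median log2 fold change of 1.48. They included the protease Mmp10 (5.41, adjusted P = 1.93e-06), the decoy receptor Tnfrsf11b (4.50, adjusted P = 1.93e-06), the oncostatin M receptor Osmr (1.26, adjusted P = 7.60e-05) and the alarmin Il33 (1.69, adjusted P = 7.98e-05). Of 16 genes of resting colon fibroblasts, 3 rose and 4 fell, the rises again near the share over all genes. Among those that fell were Ogn (-1.44, adjusted P = 0.00416), Sparcl1 (-1.27, adjusted P = 0.00686) and Clec3b (-1.77, adjusted P = 0.0117), all matrix-associated proteins, while the transcription factor Sox6 (0.74, adjusted P = 0.00996) rose. With Control mice 17 and 50 left out, 9 of 26 TGF-beta and activin genes and 11 of 14 inflammation-associated fibroblast genes were called higher, and of the 16 resting fibroblast genes 2 were called higher and 2 lower. Shares over all genes were then 12.2% higher and 5.58% lower. With no mouse left out, the median log2 fold change over all genes tested was 0.09.

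Markers of other cell types moved along with these genes. Their counts stand beside 16.4% of all genes called higher and 7.23% called lower. Of 9 tested smooth muscle markers, 8 were called lower in AOM/DSS mice, among them the actin-binding protein Tagln (log2 fold change -1.27) and smooth muscle actin Acta2 (-1.33). Their summed level was 3175 ± 1225 FPKM in Control mice but 1319 ± 349 FPKM after AOM/DSS (SD, n = 5 each), with ranges of 2312 to 5325 and 1029.6 to 1803 FPKM. Enteric glia markers summed to 5.24 to 10.2 FPKM in Control and 1.56 to 4.96 FPKM in AOM/DSS mice, with 2 of 4 called lower. Higher in AOM/DSS mice were 5 of 10 macrophage markers (328 to 638 against 569.6 to 750.1 FPKM in sum), 6 of 7 tested neutrophil markers (82.2 to 400.5 against 254 to 677 FPKM), 5 of 8 T cell markers (6.39 to 22.3 against 18.1 to 37.6 FPKM) and 3 of 7 B and plasma cell markers. Most of the neutrophil sum in Control mice was Ly6g, which went the other way, averaging 176 FPKM in Control and 104 FPKM in AOM/DSS mice. S100a8 averaged 5.66 and 134 FPKM, and S100a9 5.47 and 157 FPKM. Of 10 endothelial markers 4 rose (38.1 to 61.2 against 58.03 to 66.9 FPKM), and none of the 5 tested pericyte markers passed. Epithelial markers ran from 4309 to 8209.7 FPKM in Control and 3457 to 6702 FPKM in AOM/DSS mice, with 3 of 9 tested called lower, and 1 of 3 tested adipocyte markers fell. The epithelial sums include Epcam, which was listed at 0 in 13 mice over all groups and averaged 0 FPKM in Control mice. It averaged 303 FPKM in AOM/DSS mice and was at 864.7 FPKM at its highest. The epithelial sums carry these uneven Epcam values, and the reason for them was not tested. The mesothelial marker Msln rose (log2 fold change 1.84) while the other 4 mesothelial markers were too low to test. Over the 48 comparisons of summed levels the lowest adjusted P of the exact permutation tests was 0.0848. With 5 against 5 mice, even sums without overlap, such as those of smooth muscle and enteric glia, could not pass this adjustment unless several others reached the minimum too, so it does not show that the sums were alike. With Control mice 17 and 50 left out, 4 of 9 smooth muscle markers were called lower, 0 of 3 tested enteric glia markers were called, 0 of 8 T cell and 1 of 7 B and plasma cell markers were called higher, and all 3 tested squamous markers were called higher in AOM/DSS mice. Called higher there were 4 of 10 macrophage, 6 of 7 neutrophil, 4 of 10 endothelial and 1 of 5 pericyte markers. Only 1 of 9 epithelial and 0 of 3 adipocyte markers were called lower there. The shares over all genes were then 12.2% higher and 5.58% lower. Tgfb1, C3, Vim and Cd34 are made by several of these cell types as well as by fibroblasts. The part of these cells in the member changes was not tested.

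**Figure D2:**
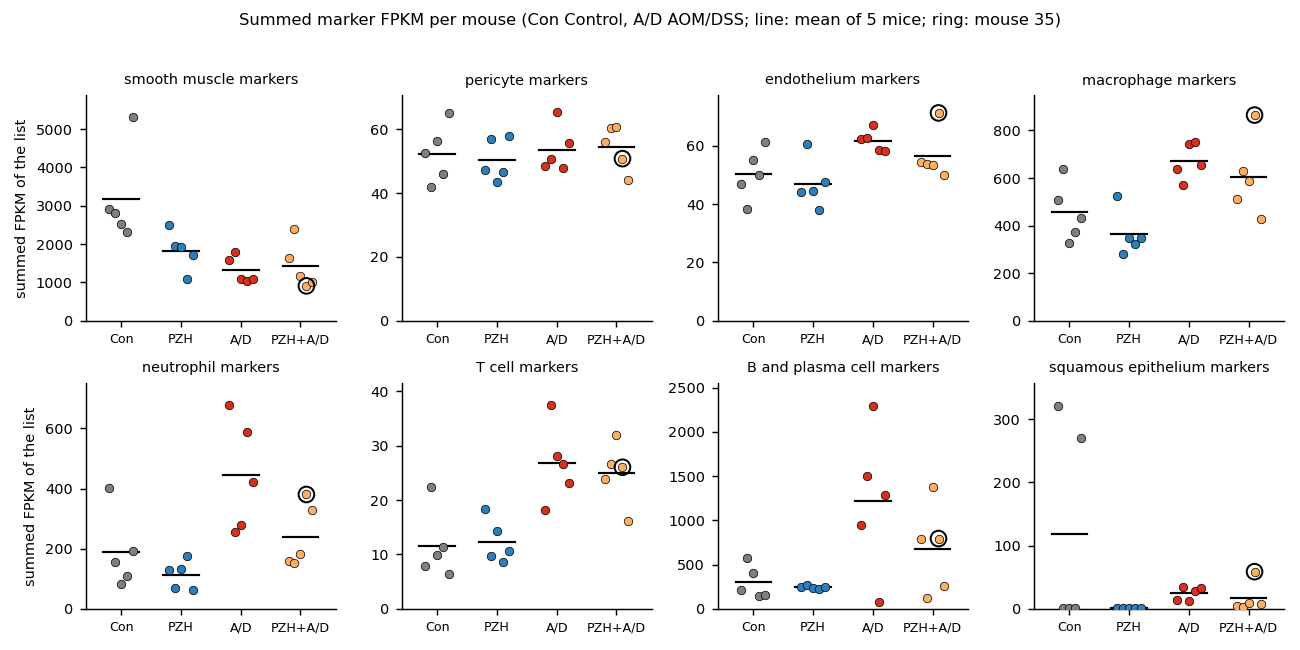
Summed FPKM of marker genes (vertical axes, linear, from 0) of 8 cell types in each mouse, with 1 point per mouse, a line at the mean of 5 mice and a ring around mouse 35. Smooth muscle markers are lower in every AOM/DSS mouse than in every Control mouse, and 2 Control mice carry squamous markers at 269 FPKM or more.

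The same AOM/DSS contrast can be read a second time among mice given PZH, in PZH + AOM/DSS against PZH, which shares no mouse with the first. Only Mgp and C3 (5.0% of the tested members) were called higher there, against 1.74% of all genes, and no member was called lower, against 0.678%. Mgp was at 22.8, 22.9, 24.8, 29.9 and 41.4 FPKM in PZH and 58.1, 61.7, 62.8, 70.3 and 179 FPKM in PZH + AOM/DSS mice (log2 fold change 1.46 ± 0.30 (SE), adjusted P = 0.0385), without overlap. C3 was at 8.94, 13.5, 20.4, 21.7 and 29.2 FPKM in PZH and 34.4, 39.7, 40.3, 52.9 and 58.3 FPKM in PZH + AOM/DSS mice (log2 fold change 1.3 ± 0.28 (SE), adjusted P = 0.042), again without overlap. Leaving out 1 mouse at a time gave 0 to 4 called members, with 0 when PZH mouse 14, 27, 46 or 53 or PZH + AOM/DSS mouse 2 or 15 was left out and 4 without PZH + AOM/DSS mouse 36. Without mouse 35, Mgp (1.16, adjusted P = 0.025) and Ccl11 (1.27, adjusted P = 0.0456) were called and C3 (adjusted P = 0.0754) was not. At an unadjusted P under 0.05, 14 members (35%) were higher, against 13% of all genes, and 0 lower, against 7.89%. The median log2 fold change was 0.27 over the members and 0.04 over all genes. Markers of other cells rose in the same comparison, with 3 of 8 T cell, 2 of 10 macrophage, 1 of 4 tested neutrophil and 1 of 7 B and plasma cell markers called higher (2, 1, 1 and 1 without mouse 35). The share of all genes called higher was 1.23% without mouse 35. Squamous markers summed to 0.613 to 1.37 FPKM in PZH and 2.55 to 58.6 FPKM in PZH + AOM/DSS mice, without overlap, and mouse 35 was the highest. Their part in the member changes was not tested.

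Of the 11 members called higher in AOM/DSS against Control, 10 were above 0 in this second contrast. Of the 11, 9 had an unadjusted P under 0.05 there (8 without mouse 35). The same counts were not made over all genes called higher with AOM/DSS, so they are no result about the members. Side by side, the log2 fold changes were 1.96 and 1.35 for Igfbp5, 1.45 and 0.86 for Lox, 1.16 and 1.11 for Ccl11, and 0.60 and 0.51 for Pdgfra. For Foxl1 they were 1.16 and 0.41, and for Snai1 0.71 and -0.06. The 3 members called lower were near 0 in the second contrast, Lum at -0.01 ± 0.18 (SE), Dpt at -0.03 ± 0.19 and Cd34 at -0.02 ± 0.15, and without mouse 35 Lum was at 0.07 and Dpt at 0.09. Decorin had a log2 fold change of 0.71 ± 0.17 (SE, unadjusted P = 0.00189, adjusted P = 0.0605) and Thy1, an anchored surface protein of fibroblasts and T cells, 0.65 ± 0.17 (unadjusted P = 0.00252, adjusted P = 0.0655). Neither of the latter had an unadjusted P under 0.05 in AOM/DSS against Control with all mice. With Control mice 17 and 50 left out of that comparison, Thy1 was at 0.50 (limma unadjusted P = 0.0112, adjusted P = 0.0576). Dcn was then at 0.39 (limma unadjusted P = 0.0526, adjusted P = 0.16).

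**Figure D3:**
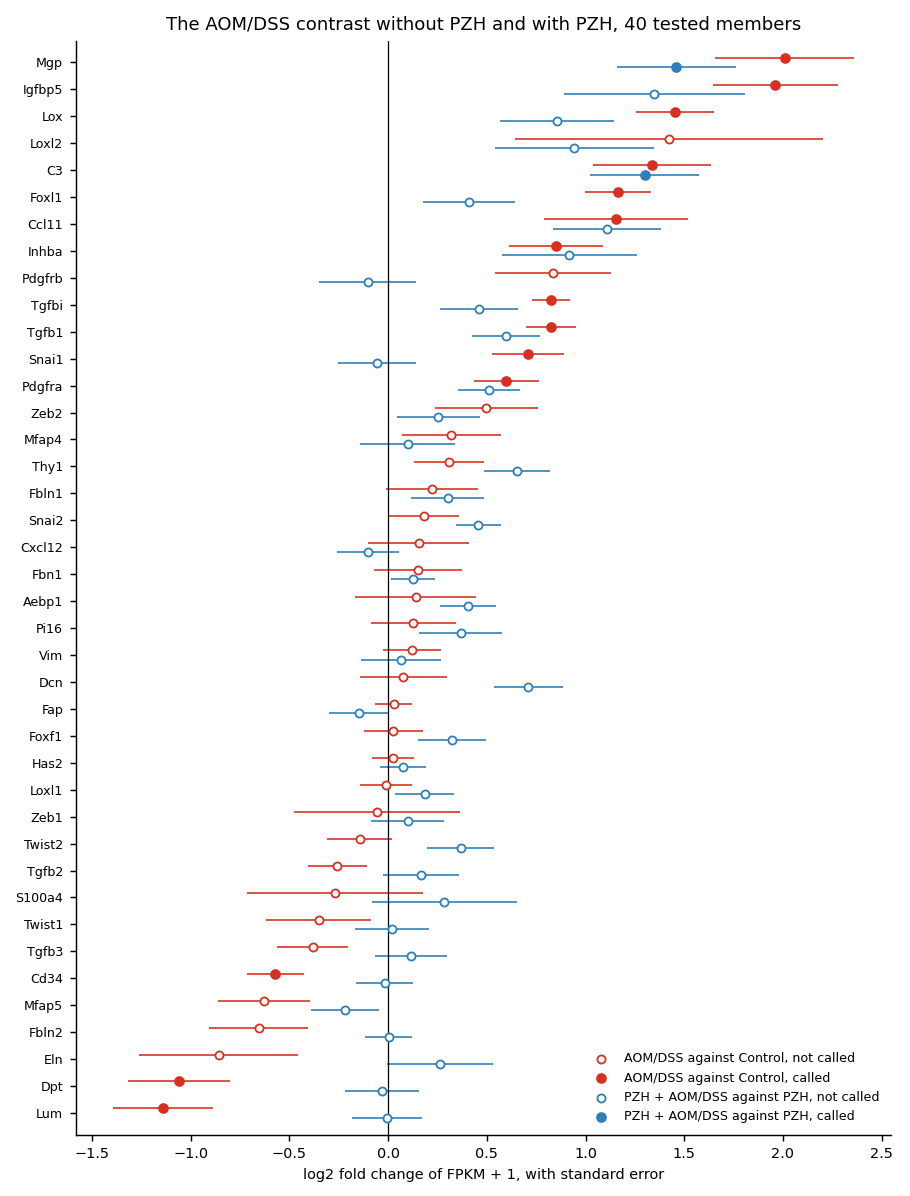
Log2 fold change of FPKM + 1 with its standard error (horizontal axis) for the 40 tested members in AOM/DSS against Control and in PZH + AOM/DSS against PZH, ordered by the first. Filled points are called at an adjusted P under 0.05. Mgp and C3 are filled in both, and Lum, Dpt and Cd34 are filled only without PZH, a difference between contrasts that the interaction below tests.

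Within mice that received AOM and DSS, PZH + AOM/DSS was compared with AOM/DSS, which uses the same AOM/DSS mice as the first contrast. No member was called, with 0.00629% of all genes called higher and 0.0% lower. At an unadjusted P under 0.05, 6 members (15%) were lower with PZH, against 8.21% of all genes. They were Mgp (-1.3 ± 0.34, log2 fold change ± SE), Igfbp5 (-1.10 ± 0.44), Lox (-0.96 ± 0.31), Foxl1 (-0.64 ± 0.25), Snai1 (-0.59 ± 0.20) and Vim (-0.37 ± 0.15), with adjusted P between 0.356 and 0.398. Higher at that level were 2 members (5.0%, against 3.51% of all genes), Lum (0.69 ± 0.26) and Dpt (0.59 ± 0.26). Neutrophil markers were lower as well, with 0 of 7 tested called but 6 at an unadjusted P under 0.05, a median log2 fold change of -1.50 and summed levels of 152 to 380.4 FPKM in PZH + AOM/DSS against 254 to 677 FPKM in AOM/DSS mice. Ly6g, the largest part of the sum in PZH + AOM/DSS mice, went the other way, averaging 146 FPKM there and 104 FPKM in AOM/DSS mice. Without mouse 35, 3 of the 7 neutrophil markers were called lower, against 4.41% of all genes. Their part in the member values was not tested.

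This comparison rested on mouse 35. It was the highest of its group in 10 of the 11 members called higher with AOM/DSS, and in all 11 it was at or above the lowest AOM/DSS mouse. In 6 of them (Tgfb1, Tgfbi, Lox, Mgp, Foxl1 and Igfbp5) the other 4 PZH + AOM/DSS mice were all below every AOM/DSS mouse. Such counts were not made over all genes. The 11 members were also picked because these AOM/DSS mice were high, which favors such a separation. The counts therefore describe where mouse 35 lay and are no result about the members. For Mgp the 5 values were 58.1, 61.7, 62.8, 70.3 and 179 FPKM, and mouse 35 was at 179 FPKM. Lox was at 1.76, 2.32, 2.57, 4.44 and 7.99 FPKM, with mouse 35 at 7.99 FPKM. Foxl1 was at 1.74, 1.83, 1.97, 2.58 and 5.64 FPKM, with mouse 35 at 5.64 FPKM. In each of these genes mouse 35 lay within the AOM/DSS range, and of the other 4 mice, 1 for Lox, 1 for Foxl1 and 0 for Mgp lay above every Control mouse. For Mgp and Lox the highest Control mouse was mouse 50, at 92.8 and 3.10 FPKM. The next Control values were 59.4 FPKM for Mgp in mouse 37 and 2.36 FPKM for Lox in mouse 17. Above these lay the mice at 61.7, 62.8 and 70.3 FPKM for Mgp and at 2.57 and 4.44 FPKM for Lox. Among Control mice 37, 41 and 48 the highest Lox value was 2.14 FPKM, and the mouse at 2.32 FPKM lay above it too. Tgfbi was at 27.1, 34.6, 40.8, 41.1 and 59.7 FPKM, Tgfb1 at 9.63, 13.5, 15.1, 15.4 and 19.8 FPKM and Igfbp5 at 13.4, 33.7, 38.2, 66.9 and 96.3 FPKM, with mouse 35 the highest in each. Of these, Tgfb1 and Tgfbi stayed above every Control mouse in 4 of the 5 PZH + AOM/DSS mice, and C3 (34.4, 39.7, 40.3, 52.9 and 58.3 FPKM) and Ccl11 (8.28, 11.7, 13.4, 13.9 and 25.1 FPKM) in all 5. Mouse 35 also had the highest summed macrophage level of the 20 mice, 865 FPKM, and the lowest smooth muscle level, 911 FPKM.

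Without mouse 35, 4 members (10%) were called lower in PZH + AOM/DSS mice, against 4.41% of all genes, and none was called higher, against 0.761%. These were Mgp (log2 fold change -1.60, adjusted P = 0.00817), Lox (-1.22, adjusted P = 0.0231), Foxl1 (-0.87, adjusted P = 0.0228) and Tgfbi (-0.52, adjusted P = 0.0489). Igfbp5 (-1.40, adjusted P = 0.0718), Snai1 (-0.70, adjusted P = 0.0726) and Tgfb1 (-0.46, adjusted P = 0.0932) missed the threshold. C3 (-0.29, adjusted P = 0.515) and Ccl11 (0.23, adjusted P = 0.799) were not called with or without the mouse. The choice to leave it out was made with the values known, and the labels give no reason to set it aside.

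**Figure D4:**
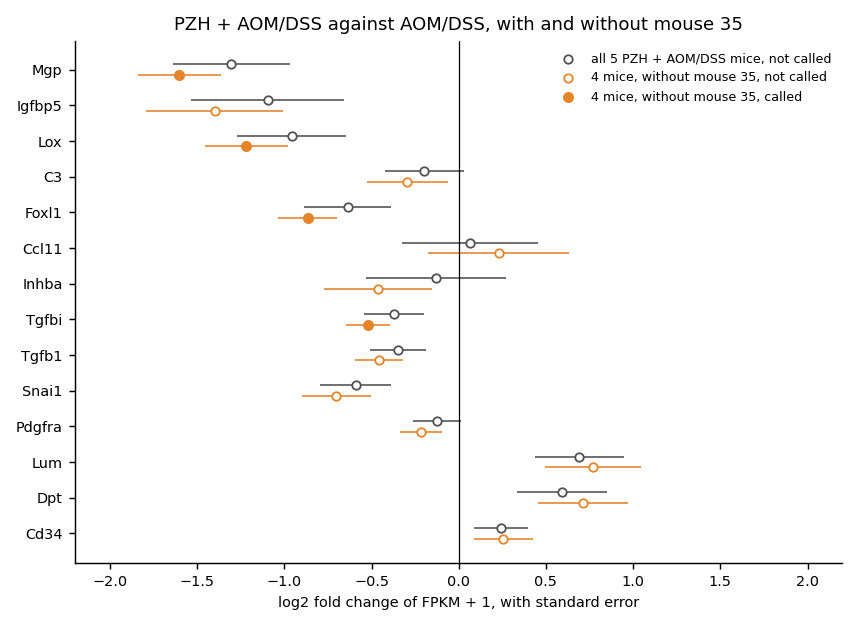
Log2 fold change of FPKM + 1 with its standard error (horizontal axis) in PZH + AOM/DSS against AOM/DSS for the 14 members called in AOM/DSS against Control, with all 5 PZH + AOM/DSS mice and with 4. No point is filled (called) with all mice, and Mgp, Lox, Foxl1 and Tgfbi are filled without mouse 35.

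In mice without AOM and DSS, PZH against Control gave no called member, with 0.0% of all genes called higher and 0.00645% lower. Unadjusted P under 0.05 were found for 11 members (27.5%) that were lower with PZH, against 4.5% of all genes, and for 1 (2.5%) that was higher, Pdgfrb, against 4.34%. Elastin had the smallest P of these. It was at 4.88, 8.02, 8.28, 9.77 and 10.1 FPKM in PZH mice against 12.6, 12.9, 17.2, 19.9 and 25.1 FPKM in Control mice (log2 fold change -1.0 ± 0.22 (SE), unadjusted P = 0.000972, adjusted P = 0.378). Every PZH mouse was below every Control mouse. Tgfb3 was at 1.46, 2.04, 2.05, 2.098 and 2.43 FPKM in PZH and 2.35, 3.01, 3.78, 4.75 and 5.17 FPKM in Control mice (-0.65 ± 0.18 (SE), unadjusted P = 0.00436, adjusted P = 0.437). The others were Thy1, Cd34, Pi16, Dpt, Dcn, Lum, Lox, Mgp and Twist2. With Control mice 17 and 50 left out, 4 members (10.3% of 39 tested) were lower, against 3.76% of all genes. These 4 were Vim, Tgfb1, Tgfb3 and Eln, of which Tgfb3 and Eln were among the 11. That fit also has fewer mice, so the smaller count does not show how much of the 11 rested on mice 17 and 50. Summed smooth muscle markers were also lower with PZH, at 1833 ± 509 FPKM (SD, n = 5) against 3175 ± 1225 FPKM (SD, n = 5) in Control mice (exact permutation test, P = 0.0159, adjusted P = 0.0848 over the 48 tests), and their part in the member values was not tested. This comparison uses the same Control mice as the first one.

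Whether PZH made the same difference with and without AOM/DSS was tested by the interaction over all 20 mice. No member was called, and 0.0059% of all genes were called in each direction. At an unadjusted P under 0.05, 7 members (17.5%) had a positive interaction, against 3.41% of all genes, and 3 (7.5%) a negative one, against 6.92%. The 7 were Lum, Dpt, Cd34, Dcn, Eln, Fbln2 and Twist2. For Lum, PZH mice lay -0.44 from Control mice and PZH + AOM/DSS mice 0.69 from AOM/DSS mice on the log2 scale, an interaction of 1.13 ± 0.32 (SE, unadjusted P = 0.00227, adjusted P = 0.35). The per-mouse values of Lum were 14.2, 16.99, 20.1, 22.9 and 24.5 FPKM in PZH and 15.4, 15.6, 20.5, 21.96 and 24.5 FPKM in PZH + AOM/DSS mice. These 2 groups overlapped each other, and both overlapped the Control and the AOM/DSS mice. Dpt had an interaction of 1.03 ± 0.33 (SE, adjusted P = 0.358). The 3 negative ones were Pdgfrb (-0.94 ± 0.40), Snai1 (-0.76 ± 0.27) and Foxl1 (-0.75 ± 0.29), with adjusted P of 0.44, 0.382 and 0.403. With Control mice 17 and 50 left out, the unadjusted counts were 2 positive (5.0%, against 3.12% of all genes) and 2 negative (5.0%, against 5.83%), close to the shares over all genes. The positive ones were then Lum (1.03) and Dpt (0.82) and the negative ones Pdgfrb (-1.22) and Snai1 (-0.73). Their limma adjusted P lay between 0.514 and 0.526. So a different effect of AOM/DSS on the members with and without PZH was not shown in these 20 mice.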

How the data were processed

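RNA-seq of colon from 20 mice was analysed, with groups taken from the labels. Per the study's methods, rRNA-depleted libraries were checked with FastQC 0.11.5 and NGSQC 2.3.3, aligned to mm10 with HISAT2 2.1.0 and quantified with StringTie 1.3.3b. The authors deposited FPKM for 118434 transcripts per mouse, of which 96182 carry Ensembl identifiers and 22252 were assembled. Ensembl transcripts were summed to 32991 genes with GENCODE M21 (150 transcripts had no entry and were left out), so RNA assigned to assembled transcripts (12.1 to 14.8% of FPKM) is not in the gene values.

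Depth estimated from the steps of low values was 15.3 to 19.4 M fragments per mouse. Only 50.7 to 56.0% of low values lay on whole steps, so no counts were recovered and no counting interval is given. FPKM totals were 508671 to 600999.

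Values were tested as log2(FPKM + 1) with limma 3.58.1 in R 4.3.3 (trend), using the 10 mice compared, or all 20 for the interaction, and genes at 0.5 FPKM or more in at least 5 mice. A gene was called at a Benjamini-Hochberg adjusted P under 0.05 over all genes tested. The test was tried on simulated data. Marker sums were compared by exact two-sided permutation tests. The labels name no batch and do not pair mice between groups. P-values weigh a difference between groups against the spread between these mice.

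The members and lists were chosen with earlier results of these data known. All members are described by role. Values of each mouse are given for members called in AOM/DSS against Control, up to 10 rises and 6 falls, and for those at or near 0, and up to 4 genes per list are named, those with the smallest adjusted P (for cell types, defining genes of high level). Outside this rule, the values of each mouse for Loxl2, Zeb1, Eln and Tgfb3 and for the Cxcl12 and Inhba transcripts were chosen after they were seen. Alternatives were another pseudocount, no filter, median-of-ratios scaling, all mice in 1 model, single transcripts and leaving out each mouse. Leaving out Control mice 17 and 50 together, and list counts without mouse 35, were added after the data were seen.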

Additional observations from a re-analysis of the deposited data

Results flagged for a closer look

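In 8 of 160 sets of 5 mice, 1 mouse lay far from the other 4 by Dixon's test, and chance flags about 8 of 160. Mouse 35 of the PZH + AOM/DSS group was high for Mgp, at 178.6 FPKM against 58.1 to 70.3 FPKM in the other 4 mice, and for Foxl1, at 5.64 FPKM against 1.74 to 2.58 FPKM. Mouse 13 of the same group was high for Cd34, at 20.9 FPKM against 12.5 to 14.2 FPKM, and for Tgfb2, at 3.85 FPKM against 1.46 to 1.79 FPKM. Control mouse 50 was high for Dpt, at 99.2 FPKM against 51.1 to 59.5 FPKM, and for Twist1, at 5.35 FPKM against 1.13 to 2.26 FPKM. AOM/DSS mouse 33 was high for Fbln1, at 41.8 FPKM against 27.5 to 31.3 FPKM. AOM/DSS mouse 44 was low for Zeb1, at 0.393 FPKM against 3.74 to 3.99 FPKM.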

How the results depend on the processing

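No call in the member comparisons reversed its direction under the alternatives tried, while members that were not called and lay near 0, such as S100a4 and Fbln1, did turn without Control mice 17 and 50. Members called lower in AOM/DSS against Control numbered 5 with median-of-ratios scaling, 5 with all 20 mice in one model and 1 with Control mice 17 and 50 left out. Members called higher in PZH + AOM/DSS against PZH numbered 0 with no filter on low values and 5 with all 20 mice in one model. The cause was not tested. Leaving out 1 mouse at a time gave 9 to 12 higher and 3 to 4 lower calls in AOM/DSS against Control, with 8 to 10 members not overlapping upward and 3 to 5 downward (5 without Control mouse 37). The same gave 0 to 4 higher and 0 lower calls in PZH + AOM/DSS against PZH. In PZH + AOM/DSS against AOM/DSS it gave 0 higher and 0 to 4 lower calls (4 without mouse 35), and 0 to 4 higher and 3 to 10 lower members at an unadjusted P under 0.05. PZH against Control gave 0 calls throughout, and the interaction 0 higher and 0 to 1 lower (1 without mouse 35). Ccl11, Inhba and Pdgfra lost their calls in AOM/DSS against Control in 8, 8 and 4 of their alternatives, with limma adjusted P up to 0.0938. No paired analysis was possible because the numbers in the labels name single mice and none is shared between groups. Values without counts limit how far low genes such as Inhba, Has1 and Has2 can be read.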
